A study of Mus musculus with 9 samples.

Results

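Cytosolic ribosomal protein genes were taken from the deposited expression table as every gene symbol of the forms Rpl or Rps with a number (with an a or x after it where present), Rpsa, and Rplp0 to Rplp2, provided that its mean over the 9 libraries was at least 5 FPKM (fragments scaled to gene length and library depth). The pattern matched 76 of 52183 genes, and 74 passed the level, 44 of the large subunit and 30 of the small subunit. The libraries were RNA-seq of bone marrow endothelial cells from mouse long bones, sorted by flow cytometry on VE-cadherin, a junction protein of endothelium stained in the living animal. There were 3 groups of 3 libraries. They were 18-month-old mice labelled as Thbs1 knockout, 18-month-old control mice and 3-month-old control mice. Thbs1 encodes thrombospondin 1, a secreted matrix protein that restrains angiogenesis. The labels gave no strain, sex, type of allele or control genotype, and they did not say whether the 3 libraries of a group came from separate mice, so the p-values speak only of the spread from library to library. The design sets the labelled knockouts against controls of the same age, and the aged controls against young ones.

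The cytosolic ribosome is built from ribosomal RNA and from one copy of most of these proteins, with the stalk proteins as the exception. Cells therefore make the proteins in near-equal amounts, from mRNAs that are among the most abundant and most stable in the cell. Most of these mRNAs begin with a run of C and U bases, the terminal oligopyrimidine motif, through which the growth kinase mTOR controls their translation.

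Start-site sequences of members are printed because the genes moved together in the libraries and because C/T runs at the start are a known feature of this gene class. RefSeq start-site sequences on GRCm38.p6 were matched for 54 of the 74 members, with 64 start sites in all. A run of at least 6 C or T bases lay within 10 bases of the start in 35 of the 64 sites, which is 54.7%, against 29.2% of all 32851 start sites in the table. Each line below holds the 15 bases before and the 15 bases from the annotated start on the gene's own strand, 5′ to 3′, with the longest C/T run near the start in capitals.
Rpl13 (chr8:123102335-123102364, plus strand): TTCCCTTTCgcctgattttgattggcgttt
Rpl4 (chr9:64173372-64173401, plus strand): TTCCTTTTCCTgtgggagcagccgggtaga
Rps6 (chr4:86857353-86857382, minus strand): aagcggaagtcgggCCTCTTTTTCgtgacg
Rpl35 (chr2:39005117-39005146, minus strand): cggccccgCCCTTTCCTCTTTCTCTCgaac
Rplp2 (chr7:141447636-141447665, plus strand): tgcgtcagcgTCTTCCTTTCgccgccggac
Rpl38 (chr11:114668565-114668594, plus strand): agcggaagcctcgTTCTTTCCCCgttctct
Rplp0 (chr5:115559452-115559481, plus strand): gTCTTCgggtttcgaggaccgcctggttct
Rps15 (chr10:80292416-80292445, plus strand): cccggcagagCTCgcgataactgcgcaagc
Rps28 (chr17:33824548-33824577, minus strand): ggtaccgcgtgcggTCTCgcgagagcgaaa
The run was 10 bases long at Rps6, Rplp2, Rpl38 and Rpl13, where its first base lies outside the window, 14 at Rpl4, of which 11 are in the window, and 18 at Rpl35. It was 5 bases at Rplp0, 4 at Rps28 and 3 at Rps15, and the annotated start may not be the main start in these cells. At Rpl13, Rpl4, Rplp0 and Rps15 the run ends before the annotated start, and so lies outside the annotated mRNA. In the wider window from 250 bases before to 50 after the start, the letters CCGGAAG, the core bound by the ETS factor GABP, were present on either strand in 24 of the 64 member sites (37.5%) and in 8.86% of all sites. The letters GCCATNTT, the core of the YY1 motif, were present in 13 member sites (20.3%) and in 6.05% of all sites. No member site had a GABP-type match that overlapped a YY1-type match, and 1 had a C/T run of 6 or more bases that overlapped a GABP-type match. These matches describe the letters of the windows only.

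Depth recovered from the smallest steps of the FPKM values ran from 27320000 to 30230000 fragments in the labelled knockouts, from 21990000 to 24410000 in the aged controls and from 22810000 to 23690000 in the young controls. The targeted gene went against its label. Thbs1 had 25.63, 19.45 and 19.84 FPKM in the libraries labelled knockout, 0.67, 0.82 and 1.17 FPKM in aged control libraries, and 4.55, 3.89 and 4.18 FPKM in young control libraries. A value per gene cannot show which exons the fragments came from, and every direction below is that of the libraries as labelled. Cdh5, the gene of the sorting marker VE-cadherin, was between 153 and 177 FPKM in all 9 libraries, and the sum of 10 endothelial genes between 1413 and 1718 FPKM. Labelled knockout library 2 and aged control library 1 had the highest sums of B-lineage and of erythroid transcripts, as given below. In these libraries the sum of 8 B-lineage genes exceeded that of the 10 endothelial genes.

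**Figure D1:**
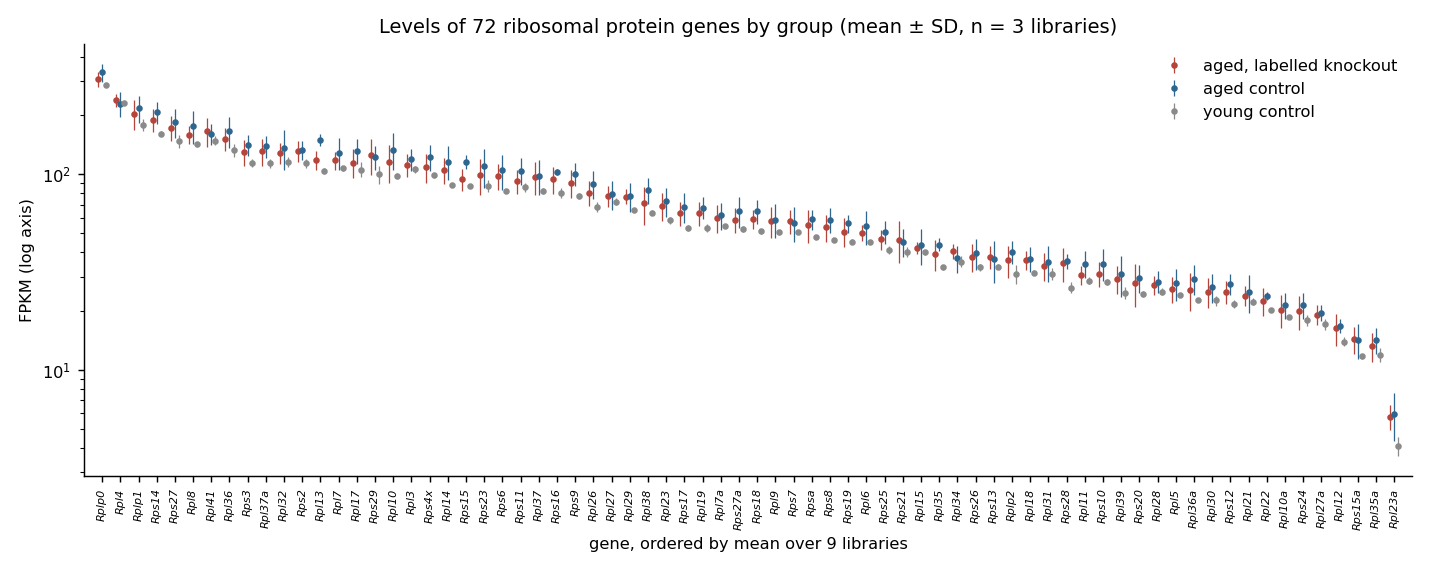
FPKM on a log axis of 72 of the 74 ribosomal protein genes, ordered by their mean over 9 libraries, as group mean ± SD (n = 3 libraries) for the labelled knockouts, the aged controls and the young controls. Levels run from 307.5 FPKM at Rplp0 to 5.28 FPKM at Rpl23a, and the aged controls lie above the young controls at every gene drawn but Rpl4 on the log2 scale used for testing.

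The members were abundant but far from equal in FPKM. Their median was 58.7 FPKM, against 6.84 FPKM over the 11796 tested genes (those averaging 1 FPKM or more), with 60.01 for the large and 58.5 for the small subunit. The 4 highest were Rplp0, which anchors the stalk that recruits elongation factors (307.5 FPKM), Rpl4, which reaches into the exit tunnel (232.8), Rplp1, a stalk protein (200.3), and Rps14, whose loss is tied to a human form of anaemia (186.5). The 5 lowest members were Rpl23a, which lies at the mouth of the exit tunnel (5.28 FPKM), Rpl35a (13.1), Rps15a (13.5), Rpl12 (15.7) and Rpl27a (18.6). Of the 74, 21 exceeded 100 FPKM and 6 were under 20 FPKM. Just outside the limit of 5 FPKM lay Rpl13a at 2.41 FPKM and Rpl24 at 1.42 FPKM, both core subunits.

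The 3 stalk genes, whose proteins sit together on the large subunit, differed from each other in level. Rplp0 had 285.50, 335.00 and 295.54 FPKM in the labelled knockouts, 373.31, 308.85 and 314.38 FPKM in the aged controls and 284.91, 281.13 and 289.23 FPKM in the young controls. Rplp1 was between 167.89 and 237.33 FPKM in the labelled knockouts, between 192.79 and 257.31 FPKM in the aged controls and between 168.33 and 193.48 FPKM in the young controls. Rplp2 was between 30.01 and 43.70 FPKM, between 34.61 and 45.33 FPKM and between 27.48 and 34.03 FPKM in the same groups. Each was above its level in the young controls in most aged control libraries, and Rplp2 lay several times under its partners in every library.

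The order of the members was nearly the same in every library. Spearman's rho of the 74 levels between libraries was 0.986 to 0.997 over the 36 pairs of libraries, as a description of shared genes and a shared annotation. Across the 74 members the mean FPKM fell with the exonic length of the gene model, with a Spearman's rho of -0.47. The models' median exonic length was 1806 bases (range 383 to 6270), against 3917 bases for all tested genes, and an FPKM is divided by such a length. Ribosomal protein genes also have many processed copies in the genome. Of each member's 50-base stretches, a median of 37.1% occurred in an annotated transcript of another gene, with a maximum of 95.1% at Rpl35, and 25 members shared over 50%. Among the 74 members the level did not go with that share (Spearman's rho of 0.01). As members were kept by their level, this rho cannot speak for genes under 5 FPKM, such as Rpl24 (81.7% shared). Pseudogene entries named after a member numbered 295, of which 55 had a mean of at least 1 FPKM, and their sum was between 6.36% and 7.07% of the members' sum in each library. How the authors' counting placed fragments that match several copies is not given in the sources used here, so the level of members such as Rpl13 (80.3% shared), Rps6 (84.6%), Rpl5 (85.4%) and Rpl23a (85.7%) is uncertain. Rps3 (2.8%), Rpl22 (5.2%) and Rps15a (5.4%) are nearly free of this.

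Some core proteins of the ribosome lie outside the symbol pattern. Rps3a1 averaged 267.9 FPKM over the 9 libraries, between the 2 highest members. Fau, which encodes a ubiquitin-like protein fused to a small-subunit protein, had 73.97, 104.27 and 84.65 FPKM in the labelled knockouts, 110.64, 98.19 and 88.84 FPKM in the aged controls and 74.14, 74.87 and 73.25 FPKM in the young controls. Rack1, a scaffold on the small subunit, was between 29.94 and 37.59 FPKM. The paralogues Rpl10l and Rpl3l, known from testis and from muscle, did not exceed 0.17 and 0.09 FPKM. Rpl22l1 had 5.36 to 11.87 FPKM beside 19.39 to 26.56 FPKM of Rpl22, and Rps27l, a gene induced by p53, had 96.72 to 137.16 FPKM beside 139.18 to 209.73 FPKM of Rps27. Rpl7l1 had 38.29 to 56.72 FPKM, Rpl36al 0.70 to 2.02 FPKM and Rpl39l 0.25 to 1.52 FPKM.

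The main variation of the members was between libraries and was shared by nearly all of them. Each gene's deviation was taken as log2(FPKM + 1) minus its mean over the 9 libraries. Averaged over the 74 genes, the deviation was -0.18, 0.24 and 0.01 in labelled knockout libraries 1 to 3, 0.33, 0.11 and -0.09 in aged control libraries 1 to 3, and -0.15, -0.18 and -0.10 in young control libraries 1 to 3. All 74 members were above their own mean in labelled knockout 2 and in aged control 1, and none was in labelled knockout 1, young control 1 or young control 2. Labelled knockout 2 held the highest value of 12 members and aged control 1 that of 60, while labelled knockout 1 held the lowest value of 26. The labelled knockouts thus ran from -0.18 to 0.24 and the aged controls from -0.09 to 0.33, while the young controls were close together. The median SD over the 3 libraries of a group was 0.21 for members in the labelled knockouts, 0.22 in the aged controls and 0.05 in the young controls, beside 0.15, 0.20 and 0.09 over all tested genes.

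**Figure D2:**
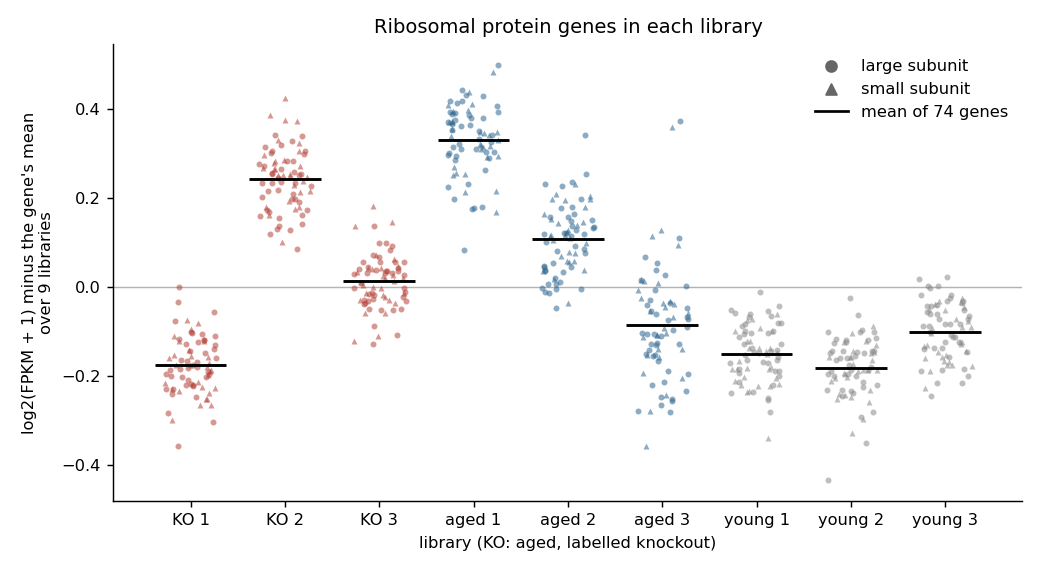
Deviation of each of the 74 ribosomal protein genes from its own mean, as log2(FPKM + 1), in each library, with large-subunit genes as circles, small-subunit genes as triangles and the mean of all 74 as a black line. Labelled knockout 2 (mean 0.24) and aged control 1 (0.33) lie highest, labelled knockout 1 (-0.18) and young control 2 (-0.18) lowest, and 2 genes stand far above the rest in aged control 3.

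Large and small subunit genes followed nearly the same course. The mean deviation of large and small subunit genes was -0.17 and -0.19 in labelled knockout 1, 0.23 and 0.26 in labelled knockout 2, and 0.33 and 0.33 in aged control 1. The summed FPKM of the large subunit was 1.58 to 1.65 times that of the small subunit in the labelled knockouts, 1.59 to 1.63 times in the aged controls and 1.66 to 1.67 times in the young controls. It was thus slightly higher in every young control than in any library of either aged group. For aged over young controls the median log2 fold change was 0.24 in the large and 0.29 in the small subunit. For labelled knockouts it was -0.09 and -0.11 over aged controls, and 0.15 and 0.18 over young controls. Over the 9 libraries, Pearson's r between 2 members had a median of 0.89 over 2701 pairs, against 0.01 over all pairs of the 11796 tested genes. With each group's mean removed and the 3 groups pooled, the median was 0.90 over members. Within groups the members' median SD was 0.21 in labelled knockouts and 0.22 in aged controls but 0.05 in young controls. The pooled value thus mainly describes shared movement within the labelled knockouts and the aged controls. The same pooled median was 0.52 for 77 mitochondrial ribosomal protein genes, 0.10 for 37 ribosome biogenesis genes and 0.21 for 32 translation initiation genes. All these values describe 9 libraries, and the genes of a library share its depth and its composition.

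Once the library's mean was removed, 659 of the 666 member values (98.9%) lay within 0.2 of it on the log2 scale. The widest departures were those of Rpl13, at 0.46 above the members' mean in aged control 3, and Rps15, a protein of the small subunit's head, at 0.44 above it in the same library. Aged control 3 was also the library where members spread most, with an SD of 0.13 against 0.06 to 0.08 in the others. Rpl23a, the member with the fewest fragments (69 in its lowest library), varied next most. Rpl4 and Rpl34 departed in the other direction, with relative levels of -0.15, -0.11 and -0.17 for Rpl4 in the aged controls against 0.14, 0.16 and 0.10 in the young controls.

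Transcripts of B-lineage and plasma cells followed nearly the same order of libraries as the members. The summed FPKM of a list of 8 such genes was 4.6, 1787 and 533 in labelled knockout libraries 1 to 3, 3018, 1584 and 478 in aged control libraries 1 to 3, and 13.1, 6.15 and 517 in young control libraries 1 to 3. Igkc and Ighm, which encode antibody chains, made up most of that sum, with Igkc at 1618 FPKM in labelled knockout 2 and 2319 FPKM in aged control 1. The B-cell surface gene Ms4a1 was at most 0.15 FPKM in any library and was listed at 0 in 4 of the 9. The 4 libraries with the highest members were those with the 4 highest sums, in the same order. The sum of 7 erythroid genes was highest in the same pair of libraries, at 180.9 FPKM in labelled knockout 2 and 183.8 FPKM in aged control 1, while the sum of 10 endothelial genes was lowest there, at 1534 and 1413 FPKM. In aged control 2, where the members ranked 3, the erythroid sum was 54.3 FPKM. The sum of 7 neutrophil genes was highest in aged control 3 (271.8 FPKM). In aged control 1 it was 12.4 FPKM, and the sum of 6 monocyte or macrophage genes was lowest there (414.8 FPKM). Other marker lists differed between the groups as well. The sum of 7 stromal, osteoblast and fat cell genes was 15.6 to 22.8 FPKM in the labelled knockouts, 15.5 to 18.8 FPKM in the aged controls and 34.4 to 58.7 FPKM in the young controls. Of the 3 tested genes of this list, limma called 2 lower in aged over young controls, beside 2.8% of all tested genes. It called 1 of the 3 lower in labelled knockouts over aged controls and 1 lower over young controls, beside 2.01% and 0.127% of all genes. Of the 10 endothelial genes 1 was called lower in aged over young controls, beside the same 2.8%. The sum of 5 haematopoietic progenitor genes was 25.6 to 47.4 FPKM in the labelled knockouts, 10.5 to 22.7 FPKM in the aged controls and 25.8 to 31.4 FPKM in the young controls. Of its 2 tested genes, 1 was called higher in labelled knockouts over aged controls, beside 2.78% of all tested genes. No other gene of the marker lists was called in any comparison. The part of these lists in the members' level was not tested. With the log2 B-lineage sum as a covariate, a fit chosen after seeing the data, the members' median log2 fold change was 0.07 for aged over young controls, where it was 0.27 without it. It was 0.03 for labelled knockouts over aged controls, with 44 of 74 above 0, and 0.08 for labelled knockouts over young controls, where it was -0.10 and 0.16 without the covariate. In bulk libraries, more RNA from other cells and more ribosomal protein mRNA per endothelial cell cannot be told apart, and the part of these transcripts in the members' level was not tested further.

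A second measure also ran with the members. Over the 11796 tested genes, Spearman's rho between a gene's deviation in a library and its exonic length was 0.31, -0.20 and 0.18 in labelled knockouts 1 to 3. It was -0.31, -0.16 and -0.20 in aged controls 1 to 3, and 0.25, 0.27 and 0.19 in young controls 1 to 3. Short genes, as the members are, thus stood relatively high in all 3 aged controls and in labelled knockout 2. Removing each library's trend with length and GC content changed the members' median to 0.18 for aged over young controls and to 0.00 for labelled knockouts over aged controls. For labelled knockouts over young controls the median did not shrink, at 0.18 against 0.16 in the main fit, with all 74 above 0. The pseudogene entries of the members, averaged over the 55 tested, deviated by 0.21 in labelled knockout 2 and 0.28 in aged control 1, beside 0.24 and 0.33 for the members. The part of length and GC content in the members' fold changes was not tested beyond this.

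**Figure D3:**
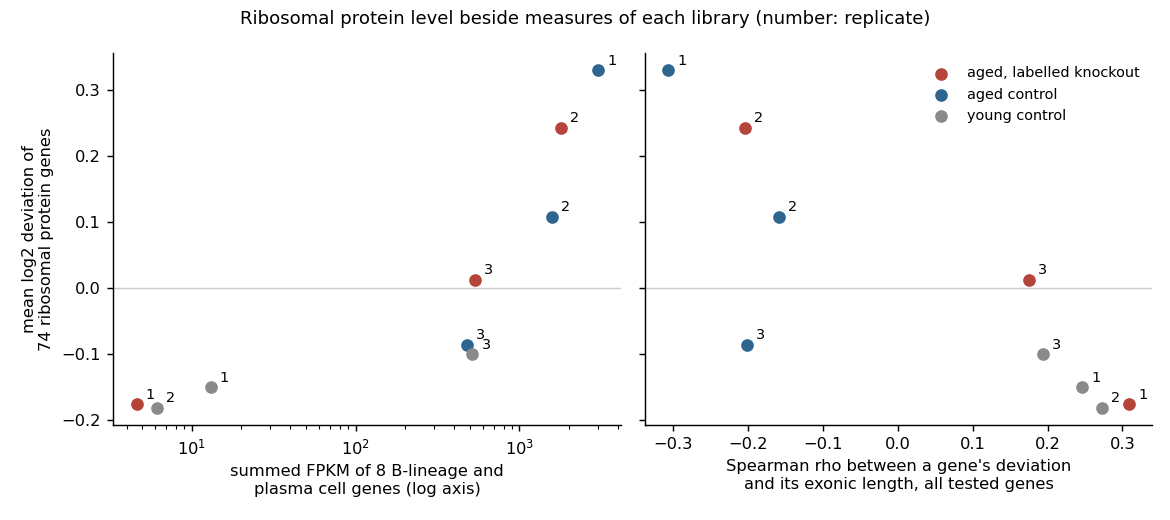
Mean log2 deviation of the 74 ribosomal protein genes in each of the 9 libraries against the summed FPKM of 8 B-lineage and plasma cell genes (left, log axis) and against the Spearman's rho between deviation and exonic length over 11796 genes (right), with the replicate number beside each point. The members are highest in the library with the largest sum (3018 FPKM, aged control 1), and aged control 3 has low members (-0.09) at a negative rho (-0.20).

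Between aged controls and young controls, the members as a group were higher in the aged controls, by a small amount. Their summed level was 7136, 6085 and 5401 FPKM in the aged controls and 5078, 4998 and 5283 FPKM in the young controls, with means of 6207 ± 874 and 5120 ± 147 FPKM (SD, n = 3 each) and a ratio of 1.21. The groups did not overlap, although aged control 3 exceeded young control 3 by little. The share of all FPKM held by the members was 1.84% ± 0.21 in the aged controls and 1.64% ± 0.04 in the young controls (SD, n = 3 each), and there the lowest aged control (1.62%) lay under the highest young control (1.68%). By limma over all 11796 genes, 73 of the 74 log2 fold changes were above 0, with a median of 0.27 (range -0.02 to 0.52), while the median of all tested genes was -0.05 and 44.0% of them were above 0. At 35 of the 74 members every aged control exceeded every young control (47.3%), against 13.9% of all tested genes, and at no member was every aged control lower, against 21.8% of all genes. Since the members move as a block, these 35 are not 35 separate observations. Without aged control 1 the median was 0.16, with 67 of 74 above 0.

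A single member passed the test. Rpl13, a large-subunit protein gene (ENSMUSG00000000740, chromosome 8, 123102350 to 123105244, plus strand of GRCm38), had 152.03, 138.65 and 158.76 FPKM in the aged controls and 100.64, 104.03 and 107.34 FPKM in the young controls. All aged controls lay above all young ones, with a log2 fold change of 0.52 ± 0.10 (SE) and a limma adjusted p of 0.036. That is 1 member called higher of 74, or 1.35%, beside 1.2% of all tested genes, and 0 called lower, beside 2.8% of all genes. At an unadjusted p under 0.05 there were 22 members (29.7%), all of them higher in the aged controls. The share of all tested genes was 27.7%, but it counts genes in either direction. It is therefore not a like-for-like background for members that were all higher. The Rpl13 call was lost when aged control 1 (adjusted p = 0.050), aged control 3 (0.067), labelled knockout 3 (0.059) or any 1 of the young controls (0.115 to 0.144) was left out of the limma fit, and its fold change stayed between 0.48 and 0.54 in these fits.

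Further members came near the threshold or mark the ends of the range. Rps15 (chromosome 10, 80292453 to 80294114, plus strand) had 113.90, 107.01 and 126.10 FPKM in the aged controls and 86.55, 87.89 and 87.39 FPKM in the young controls, a log2 fold change of 0.40 ± 0.11 with a limma adjusted p of 0.068. Rps28 (chromosome 17, 33819027 to 33824562, minus strand), a small protein near the mRNA exit, had 38.41, 36.81 and 32.34 FPKM in the aged controls and 25.09, 25.84 and 28.20 FPKM in the young controls. Its log2 fold change was 0.43 ± 0.14 with a limma adjusted p of 0.094, and the groups did not overlap. Rpl23a (chromosome 11, 78180932 to 78183584, minus strand) had 7.09, 6.80 and 4.08 FPKM in the aged controls and 4.39, 3.56 and 4.30 FPKM in the young controls, with the third aged control inside the range of the young ones. The limma fold change of Rpl23a was 0.43 ± 0.18 with an adjusted p of 0.157. The member with a fold change under 0 was Rpl4 (chromosome 9, 64173375 to 64178666, plus strand), with 262.62, 231.49 and 194.30 FPKM in the aged controls and 230.36, 228.00 and 232.45 FPKM in the young controls. Rpl4 thus spread widely around an almost constant young level, with a log2 fold change of -0.02 ± 0.12 (limma adjusted p = 0.946).

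**Figure D4:**
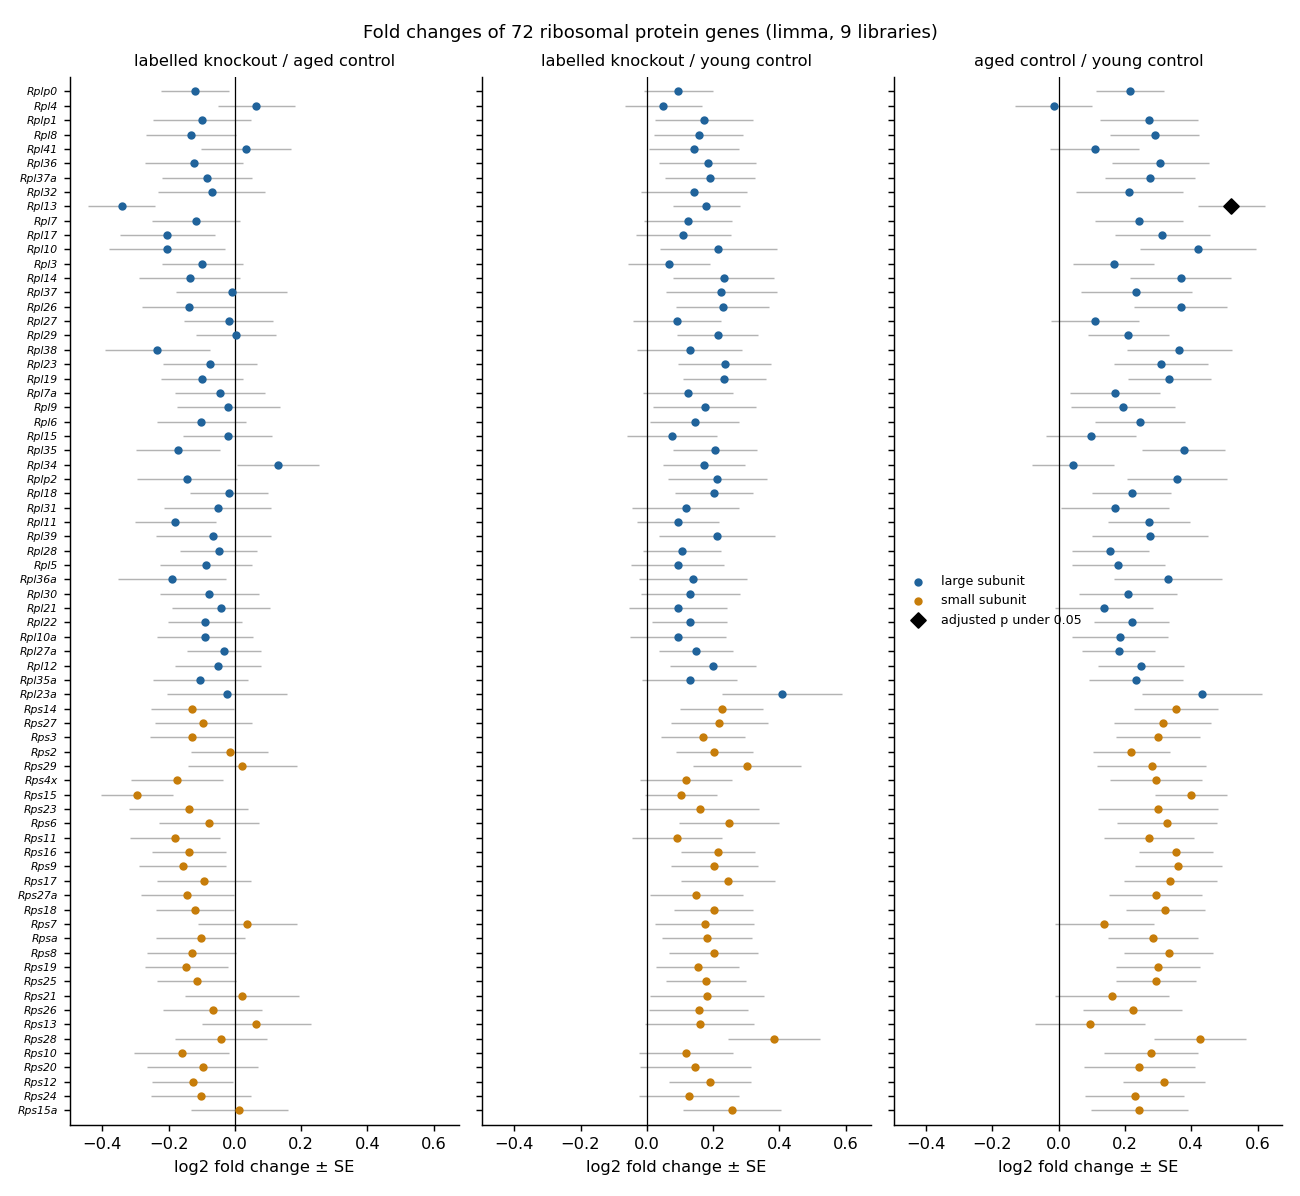
Log2 fold change ± SE (limma, 9 libraries) of 72 of the 74 members for labelled knockouts over aged controls, labelled knockouts over young controls and aged controls over young controls, with large-subunit genes above small-subunit genes and each ordered by level. The medians over all 74 are -0.10, 0.16 and 0.27, and Rpl13 in the comparison of aged with young controls is the one member at an adjusted p under 0.05.

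Between labelled knockouts and aged controls the members differed by less than the spread between libraries. Their summed level was 5018, 6646 and 5686 FPKM in the labelled knockouts and 7136, 6085 and 5401 FPKM in the aged controls, with means of 5783 ± 819 and 6207 ± 874 FPKM (SD, n = 3 each) and a ratio of 0.93. The groups overlapped widely. The median log2 fold change was -0.10 (range -0.34 to 0.13), with 9 of 74 above 0, beside a median of 0.00 and 50.4% above 0 for all tested genes. No member was called higher or lower by limma, where 2.78% of all genes were called higher and 2.01% lower. At an unadjusted p under 0.05 there were 2 members (2.7%), both lower, against 24.1% of all tested genes in either direction. The sign of the median rests on single libraries, since it was 0.01 without labelled knockout 1 and 0.01 without aged control 1, and -0.20 without labelled knockout 2 or aged control 3.

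Rpl13 and Rps15 were the members lowest in this comparison, and at these 2 of 74 (2.7%) every labelled knockout was under every aged control, against 11.1% of all tested genes. No member was higher without overlap, against 12.1% of all genes. Rpl13 had 106.77, 133.07 and 115.17 FPKM in the labelled knockouts beside 152.03, 138.65 and 158.76 FPKM in the aged controls, a log2 fold change of -0.34 ± 0.10 with a limma adjusted p of 0.084. Rps15 had 81.48, 105.34 and 96.16 FPKM in the labelled knockouts beside 113.90, 107.01 and 126.10 FPKM in the aged controls, a log2 fold change of -0.30 ± 0.11 with a limma adjusted p of 0.137. Both have their highest value in aged control 3, and that library enters both comparisons. Without labelled knockout 2 the limma adjusted p of Rpl13 was 0.029, at a fold change of -0.43. With each library's trend with length and GC content removed, the log2 fold change of Rpl13 was -0.25 (limma adjusted p = 0.078). That of Rps15 shrank further, to -0.13 (limma adjusted p = 0.351).

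Rpl38, a large-subunit protein needed for patterning of the mouse skeleton, followed with 55.65, 86.89 and 70.45 FPKM in the labelled knockouts and 96.84, 79.62 and 72.42 FPKM in the aged controls. These values overlapped (log2 fold change -0.23 ± 0.16, limma adjusted p = 0.399). At the other end, Rpl34 had 37.61, 44.48 and 39.47 FPKM in the labelled knockouts and 42.77, 37.54 and 31.13 FPKM in the aged controls, which also overlapped. Its log2 fold change was 0.13 ± 0.12 (limma adjusted p = 0.552), and Rps13 and Rpl4 came next at 0.07 and 0.07.

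Between labelled knockouts and young controls all 74 fold changes were above 0, but no member was called. The median log2 fold change was 0.16 (range 0.05 to 0.41), beside -0.03 for all tested genes, of which 42.3% were above 0. By limma 0 of 74 members were called higher, where 0.0848% of all genes were, and 0 lower, where 0.127% were. At an unadjusted p under 0.05 there were 2 members (2.7%), both higher, against 9.27% of all tested genes in either direction. The groups did not overlap at 7 members (9.46%), all higher, against 8.46% of all genes, and at no member were the labelled knockouts lower throughout, against 14% of all genes. The median was 0.06 without labelled knockout 2, and 61 of the 74 were then above 0.

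The 3 largest fold changes were those of Rpl23a, Rps28 and Rps29. Rpl23a had 5.02, 6.68 and 5.59 FPKM in the labelled knockouts and 4.39, 3.56 and 4.30 FPKM in the young controls, without overlap (log2 fold change 0.41 ± 0.18, limma adjusted p = 0.528). Rps28 had 28.11, 42.10 and 35.26 FPKM in the labelled knockouts and 25.09, 25.84 and 28.20 FPKM in the young controls, where the lowest labelled knockout was just under the highest young control. The limma fold change of Rps28 was 0.38 ± 0.14 with an adjusted p of 0.434. Rps29 had 97.35, 148.21 and 129.86 FPKM in the labelled knockouts and 97.92, 90.82 and 111.64 FPKM in the young controls, which overlapped (0.30 ± 0.16, limma adjusted p = 0.616).

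**Figure D5:**
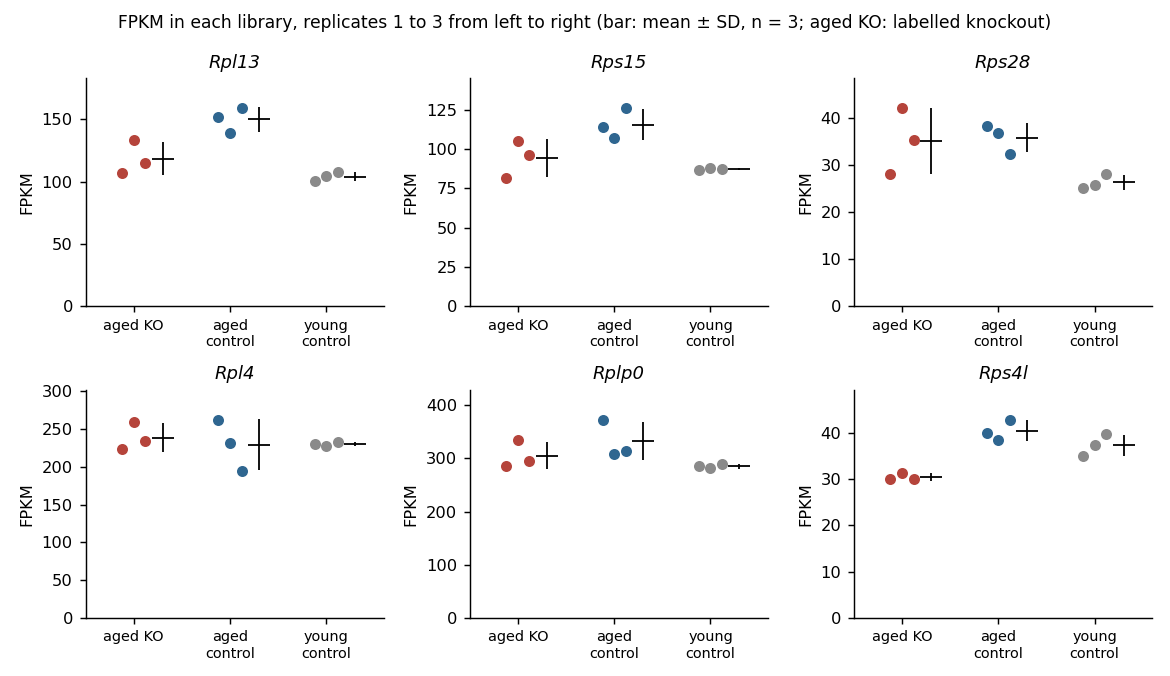
FPKM in each library of Rpl13, Rps15, Rps28, Rpl4, Rplp0 and the outside paralogue Rps4l, by group, with the mean ± SD (n = 3) beside the points. Rpl13 lies at 138.65 to 158.76 FPKM in the aged controls, above both other groups, and Rps4l lies lowest in the labelled knockouts, at 30.02 to 31.42 FPKM.

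Members with known roles outside the ribosome or in disease gave the same picture, with no call in any comparison. Rpl5 and Rpl11, which bind the p53 regulator Mdm2 when ribosome assembly is disturbed, averaged 25.99 ± 3.9 and 30.7 ± 3.5 FPKM in the labelled knockouts, 27.8 ± 5.1 and 35.0 ± 5.4 FPKM in the aged controls and 24.1 ± 0.56 and 28.6 ± 1.1 FPKM in the young controls (SD, n = 3). Rpl26, which promotes translation of p53 mRNA, averaged 80.7 ± 12 FPKM, 89.0 ± 15 FPKM and 68.2 ± 3.7 FPKM in the same groups. Rps19, the gene most often mutated in human Diamond-Blackfan anaemia, averaged 51.0 ± 8.5 FPKM in the labelled knockouts, 56.2 ± 6.0 FPKM in the aged controls and 45.3 ± 1.2 FPKM in the young controls. For these 4 genes the log2 fold change of aged over young controls was 0.18 to 0.37, with limma adjusted p between 0.132 and 0.426. Rps14 averaged 190 ± 26 FPKM in the labelled knockouts, 208 ± 27 FPKM in the aged controls and 161 ± 4.4 FPKM in the young controls.

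Rps6, the substrate of the S6 kinases downstream of mTOR, had 86.94, 115.56 and 92.72 FPKM in the labelled knockouts, 127.57, 101.08 and 85.12 FPKM in the aged controls and 81.41, 81.47 and 83.44 FPKM in the young controls. Every library of either aged group exceeded every young control at Rps6, with log2 fold changes of 0.25 and 0.33 over young controls that did not pass the limma test (adjusted p = 0.658 and 0.194). Rps3, at the mRNA entry channel, averaged 129 ± 20 FPKM in the labelled knockouts, 141 ± 17 FPKM in the aged controls and 114 ± 5.5 FPKM in the young controls. Rpsa, also studied as a laminin receptor precursor, averaged 55.1 ± 10 FPKM, 58.9 ± 7.1 FPKM and 47.9 ± 1.0 FPKM in these groups. Rpl10, which is added late in maturation of the large subunit, averaged 116 ± 25 FPKM, 134 ± 29 FPKM and 98.1 ± 3.9 FPKM, and Rpl22 averaged 22.5 ± 3.7 FPKM, 23.9 ± 1.1 FPKM and 20.3 ± 0.35 FPKM. In all of these the aged controls had the highest mean and the young controls the lowest. Rpl13a, below the level for members, stood at 1.69 to 2.91 FPKM in the labelled knockouts, 1.87 to 2.83 FPKM in the aged controls and 2.30 to 2.40 FPKM in the young controls.

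Of the 12 listed genes outside the pattern, 9 were tested and 1 was called, lower in the labelled knockouts over the aged controls. In that comparison 2.01% of all tested genes were called lower. Rps4l, annotated as a transcribed processed pseudogene on chromosome 6 (148354656 to 148355598, plus strand), had 30.02, 31.42 and 30.06 FPKM in the labelled knockouts and 39.96, 38.50 and 42.92 FPKM in the aged controls. The groups did not overlap, and the log2 fold change was -0.40 with a limma adjusted p of 0.031. Its young control values were 35.10, 37.34 and 39.69 FPKM, and its name-giving relative Rps4x, a member, had 94.90, 130.08 and 101.03 FPKM in the labelled knockouts beside 143.91, 115.25 and 108.51 FPKM in the aged controls (limma adjusted p = 0.473). Rps4x shares 72.2% of its 50-base stretches with other genes, so these 2 values may not be separate.

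The mitochondrial ribosomal protein genes, which build the separate ribosome of the mitochondrion, had a median of the same sign as the members in the comparisons with the aged controls and a median near 0 for labelled knockouts over young controls. Of 78 such genes, 77 were tested, with a median log2 fold change of -0.20 for labelled knockouts over aged controls, 0.19 for aged over young controls and -0.01 for labelled knockouts over young controls, where 34 were above 0. In the first comparison 2 of the 77 fell, a share near the 2.01% of all tested genes, and none rose. Mrpl44 had 12.64, 12.94 and 13.51 FPKM in the labelled knockouts and 19.00, 18.79 and 18.66 FPKM in the aged controls (limma adjusted p = 0.014), and Mrpl16 had 12.57, 14.92 and 16.23 FPKM beside 22.85, 20.07 and 20.08 FPKM (limma adjusted p = 0.037). In the other comparisons none was called.

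Genes that assemble ribosomes had medians of the opposite sign to those of the members. Of 37 ribosome biogenesis genes, 2 rose in the labelled knockouts over the aged controls and none fell, and 4 fell in the aged over the young controls and none rose, with medians of 0.18 and -0.24. Over all tested genes, 2.78% were called higher and 2.01% lower in the first comparison, and 1.2% and 2.8% in the second. These comparisons share the aged controls. Nop58, a core protein of the particles that methylate ribosomal RNA, had 9.29, 6.03 and 7.58 FPKM in the labelled knockouts, 3.63, 3.63 and 3.27 FPKM in the aged controls and 8.23, 7.97 and 7.75 FPKM in the young controls. Its log2 fold change was 0.92 for labelled knockouts over aged controls (limma adjusted p = 0.007) and -0.99 for aged over young controls (limma adjusted p = 0.012). Its partner Nop56 rose to 26.46, 27.34 and 24.80 FPKM in the labelled knockouts, against 19.66, 17.55 and 17.61 FPKM in the aged controls (limma adjusted p = 0.014). Wdr43, which acts in small-subunit assembly, fell to 12.07, 11.26 and 11.92 FPKM in the aged controls, against 17.24, 16.13 and 18.12 FPKM in the young controls (limma adjusted p = 0.035), and Ddx21 also fell (limma adjusted p = 0.048). Rrs1 had 14.30, 12.72 and 14.10 FPKM in the aged controls and 19.66, 18.00 and 17.25 FPKM in the young controls (limma adjusted p = 0.044).

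The called regulators of this programme included the Myc genes, which were lowest in the aged controls. In a list of 24 genes of mTOR and MYC control of translation, 23 of them tested, 3 rose and 1 fell in the labelled knockouts over the aged controls, and 3 fell in the aged over the young controls. The shares of all tested genes called were 2.78% higher and 2.01% lower in the first comparison, and 2.8% lower in the second. Myc, a transcription factor known to raise ribosome production, had 157.68, 123.78 and 108.80 FPKM in the labelled knockouts, 70.58, 52.48 and 62.50 FPKM in the aged controls and 113.71, 107.15 and 97.08 FPKM in the young controls. Its limma adjusted p was 0.007 for labelled knockouts over aged controls and 0.036 for aged over young controls, with log2 fold changes of 1.05 and -0.77. Mycn had 3.04, 2.44 and 4.30 FPKM in the labelled knockouts, 0.60, 0.69 and 0.72 FPKM in the aged controls and 2.47, 1.95 and 2.96 FPKM in the young controls (limma adjusted p = 0.005 and 0.028). Sesn2, a restraint on mTOR, rose in the labelled knockouts over the aged controls by 0.88 on the log2 scale (limma adjusted p = 0.031), and Deptor, an mTOR inhibitor, fell by 0.46 (limma adjusted p = 0.030). Rictor fell in the aged over the young controls by 0.46 (limma adjusted p = 0.049). The members lay at their highest mean in the aged controls, where Myc, Mycn and Nop58 were lowest.

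Beside the counts below, 2.78% of all tested genes were called higher and 2.01% lower for labelled knockouts over aged controls. For aged over young controls these shares were 1.2% and 2.8%. In the remaining lists, none of 21 other mRNAs of the oligopyrimidine class was called in any comparison, and their medians were 0.01 for labelled knockouts over aged controls and 0.09 for both aged groups over young controls. Among them, Eef1a1, the main elongation factor, was between 445.37 and 527.83 FPKM in the labelled knockouts, between 393.16 and 566.76 FPKM in the aged controls and between 455.56 and 466.57 FPKM in the young controls. Of 11 elongation and termination genes, Gspt1 rose in the labelled knockouts over the aged controls (0.51, limma adjusted p = 0.029) and Etf1 fell in the aged over the young controls (-0.59, limma adjusted p = 0.044). Both encode release factors. Of 32 initiation genes Eif5 alone was called, at 92.72, 70.47 and 76.53 FPKM in the labelled knockouts, 54.12, 56.48 and 58.89 FPKM in the aged controls and 83.70, 88.79 and 81.63 FPKM in the young controls (limma adjusted p = 0.036 and 0.035). In a p53 and nucleolar stress list of 11 tested genes, 2 rose in the labelled knockouts over the aged controls (Cdkn1a and Sesn2) and 2 fell in the aged over the young controls (Cdkn1a and Mdm2), with medians of 0.27 and -0.37 and none of the 11 above 0 in the second comparison. Cdkn1a, a cell cycle inhibitor, had 361.14, 330.80 and 306.82 FPKM in the labelled knockouts, 203.12, 163.64 and 163.88 FPKM in the aged controls and 256.82, 262.57 and 267.30 FPKM in the young controls (limma adjusted p = 0.003 and 0.035). Mdm2 fell in the aged over the young controls (-0.59, limma adjusted p = 0.049). None of the 8 tested hosts of small nucleolar RNAs was called, and Gas5, the most abundant, lay between 15.84 FPKM in aged control 3 and 33.98 FPKM in aged control 1.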

How the data were processed

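The authors deposited FPKM values per gene and library, rounded to 2 decimals. FastQC 0.11.5, STAR and edgeR, and the builds GRCm38 and mm10, are named in the submitters' processing notes without their roles. Libraries were made with a low-input full-length cDNA kit, per the labels' protocols. FPKM times exonic length sum to nearly the same total in every library, so values are scaled to depth and not for composition. Depth was estimated from the steps of low values, which gave whole fragments within 0.1 for at least 99.6% of those used. All 52183 identifiers matched GENCODE M21 on GRCm38.

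The 11796 genes averaging 1 FPKM or more were tested with limma 3.58.1 (R 4.3.3) on log2(FPKM + 1), with 1 mean per group over all 9 libraries, a variance trend and Benjamini-Hochberg adjustment over all of them at 0.05. This scale understates fold changes of low genes. The test was checked on simulated data. An exact permutation test of 3 against 3 cannot give a p under 0.1 and was not used. Named genes were those at the ends of level and of each comparison, members with known roles, and up to 3 called genes per list and comparison. A few listed genes and members are not reported here by name and are not drawn in the plots that label genes. The members and lists were chosen with earlier results of these data known. Alternatives covered pseudocount, filter, scaling, length and GC trend, weights, threshold, replicate block and each library left out.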

Additional observations from a re-analysis of the deposited data

How the results depend on the processing

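Each fit was repeated under 25 other settings. The count of members called higher in aged over young controls, 1 as reported, was 0 with no filter on low genes, 2 with median-ratio scaling, 2 with only the 2 groups compared, 5 at an adjusted p under 0.1 and 23 with array weights, which also called 846 of all genes higher and 1474 lower. It was 3 with aged control 1 and labelled knockout 2 both left out and 0 with the B-lineage sum as a covariate, settings chosen after seeing the data, and 0 to 4 with 1 library left out. Of all tested genes, 141 were called higher in the main fit, 238 with median-ratio scaling and 258 with only the 2 groups. That count was 6 with no filter, 585 at an adjusted p under 0.1 and 451 with both libraries left out. With 1 library left out it was 0 to 366. With the covariate no gene of the whole table was called there. For labelled knockouts over aged controls, 1 member (Rpl13) was called lower with array weights, at an adjusted p under 0.1 and without the same 2 libraries, and 0 to 1 with 1 library left out. In the first 3 of these settings 841, 599 and 561 of all genes were called lower, against 237 in the main fit. With 1 library left out, 63 to 563 of all genes were. For labelled knockouts over young controls, 1 member (Rps28) was called higher with array weights, beside 227 of all genes. The causes were not tested.

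The median log2 fold change of aged over young controls was 0.16 to 0.37 with 1 library left out, 0.16 without the 2 libraries and 0.069 with the covariate; that of labelled knockouts over aged controls was -0.20 to 0.01, and that of labelled knockouts over young controls 0.06 to 0.28, each with 1 library left out. Rescaling every library to the same FPKM total (TPM) moved the median of all genes by -0.11 in aged over young controls. The members' own median became 0.17, and it lay 0.32 above that of all genes with and without that step. For labelled knockouts over aged controls the members' median became -0.02 and the median of all genes 0.08. The members' median minus that of all genes was -0.097 there, against -0.100 without the step. The members' share of FPKM, over those without a tested pseudogene of the same name, was 1.0% in labelled knockouts, 1.005% in aged controls and 0.904% in young controls, lower because fewer members are summed.

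Same-numbered libraries had correlations of -0.13 to 0.12 in their deviations from the group means. These values show no deviation shared by number. They cannot tell whether same-numbered libraries were prepared together. With the replicate number as a block, 0 members were called in aged over young controls (Rpl13 adjusted p = 0.061), and 52 of all genes were higher and 131 lower.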
